A study of Mus musculus with 8 samples.

Results

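The 10 genes described here, Sox9, Sox10, Foxd3, Zeb2, Tfap2a, Tfap2b, Snai1, Snai2, Twist1 and Ets1, encode transcription factors of the neural crest and of the epithelial to mesenchymal transition (EMT). They were chosen by name, and each was found once among the 55078 gene symbols of the deposited expression table. The cells were 46C mouse embryonic stem cells, a line with a green fluorescent protein reporter at the Sox1 locus. Libraries labelled KO carry a deletion of Dip2c, per the title of the series, and libraries labelled WT are given as 46C too, without it. In the N2B27 series cells of each label were sampled at day 6 in N2B27 induction medium and at day 0, proliferating in stem cell medium. In the KSR series they were sampled at day 4 in KSR induction medium and at day 0 in the same kind of stem cell medium. Each label and condition has 1 library, 8 in all, and the labels do not say whether libraries came from separate cultures or how many clones the deletion line holds. Intervals and p-values below therefore measure the spread between these libraries, which may be technical.

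In the embryo the neural crest arises at the border of the neural plate, leaves the neural tube by EMT and gives rise to peripheral neurons and glia, pigment cells and the skeleton of the face. AP-2 proteins (Tfap2a, Tfap2b) act early at the border, Foxd3, Sox9 and Ets1 mark premigratory crest, and Sox10 marks migrating crest and its glia. Snai1, Snai2, Zeb2 and Twist1 are EMT factors, and the Snail and Zeb proteins repress the E-cadherin gene Cdh1 through E-box sequences. Several of these genes also work elsewhere: Foxd3 in pluripotent stem cells, and Sox9 and Zeb2 in neural progenitors.

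The values were FPKM, fragments scaled by transcript length and by library size, so levels are per length. The FPKM of a library summed to between 509344 and 637117, and 13451 to 14335 genes reached 1 FPKM. The read depth is unknown. The depths of the libraries were put roughly at 0.973 to 1.165 of the WT-labelled KSR day 0 library. These are the commonest ratios to that library among genes under 0.1 FPKM in both. Between 28.2% and 32.5% of those genes lay close to that ratio. Dip2c mRNA did not separate the labels, at 2.91 to 4.43 FPKM in the KO-labelled and 2.74 to 5.78 FPKM in the WT-labelled libraries. Each direction between KO and WT below is therefore one between labels, and KO or WT after a value is the label of its library. The Y-linked Eif2s3y, the 1 gene that passed the test between labels, had 0 FPKM in each KO-labelled library and 7.03 to 14.9 FPKM in those labelled WT. Whether the labels also differ by subclone or line cannot be told apart from the deletion in any KO minus WT value below. One column name disagrees with its label: day 7 against day 6 for the differentiated WT-labelled N2B27 library, which is called N2B27 day 6 here.

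The promoters of 3 genes are shown as examples of 3 of the courses seen below. These are Foxd3, low after differentiation and high in stem cells, Tfap2b, listed at 0 in stem cells, and Snai1, close to level throughout. The sequences are RefSeq's on GRCm38.p6, the mm10 build of the authors' alignment, and run from 250 bases before to 50 bases after an annotated start, all on the plus strand. Capitals mark CANNTG, the general E-box, and GCCNNNGGC, a site of AP-2 proteins, on either strand. The Foxd3 window is chr4:99656049-99656348, the Tfap2b window chr1:19211804-19212103 and the Snai1 window chr2:167537945-167538244.
Foxd3 promoter: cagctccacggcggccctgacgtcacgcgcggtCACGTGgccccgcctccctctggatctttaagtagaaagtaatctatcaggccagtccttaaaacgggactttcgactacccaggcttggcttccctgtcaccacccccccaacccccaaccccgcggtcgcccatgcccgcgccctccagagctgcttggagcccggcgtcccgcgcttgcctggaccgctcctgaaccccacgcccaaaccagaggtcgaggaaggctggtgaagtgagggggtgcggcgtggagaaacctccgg
Tfap2b promoter: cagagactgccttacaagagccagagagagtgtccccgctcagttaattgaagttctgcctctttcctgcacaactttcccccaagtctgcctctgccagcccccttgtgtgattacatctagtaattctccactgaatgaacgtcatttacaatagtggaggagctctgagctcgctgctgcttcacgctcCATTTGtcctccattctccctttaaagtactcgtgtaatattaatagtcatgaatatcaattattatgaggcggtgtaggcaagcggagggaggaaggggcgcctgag
Snai1 promoter: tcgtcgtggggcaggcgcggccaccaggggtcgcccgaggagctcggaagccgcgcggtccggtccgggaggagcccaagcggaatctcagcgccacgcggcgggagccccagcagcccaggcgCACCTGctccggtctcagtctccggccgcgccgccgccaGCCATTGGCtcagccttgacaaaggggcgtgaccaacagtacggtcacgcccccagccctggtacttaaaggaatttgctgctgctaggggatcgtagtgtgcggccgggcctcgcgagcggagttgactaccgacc
The Snai1 window holds CACCTG, 126 bases before the start, and GCCATTGGC, 87 bases before it, with no overlap between them. Snail proteins are known to bind CACCTG, which is CAGGTG on the other strand. The Foxd3 window holds CACGTG 217 bases before the start, and the Tfap2b window CATTTG 58 bases before it. Neither of these windows holds CAGGTG on either strand. Of all 32851 windows of 300 bases, 72.3% hold CANNTG, 20.2% hold CAGGTG and 16.6% hold GCCNNNGGC, each on either strand. The Snai1 and Foxd3 windows hold 34 and 25 CpG dinucleotides and the Tfap2b window holds 8, against a median of 7 over all windows. The Tfap2b start lies inside the gene as GENCODE M21 has it. Windows were found for 6 of the 10 genes, 10 windows in all, those named above and Zeb2, Tfap2a and Twist1. A match is a run of letters and shows no binding.

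**Figure D1:**
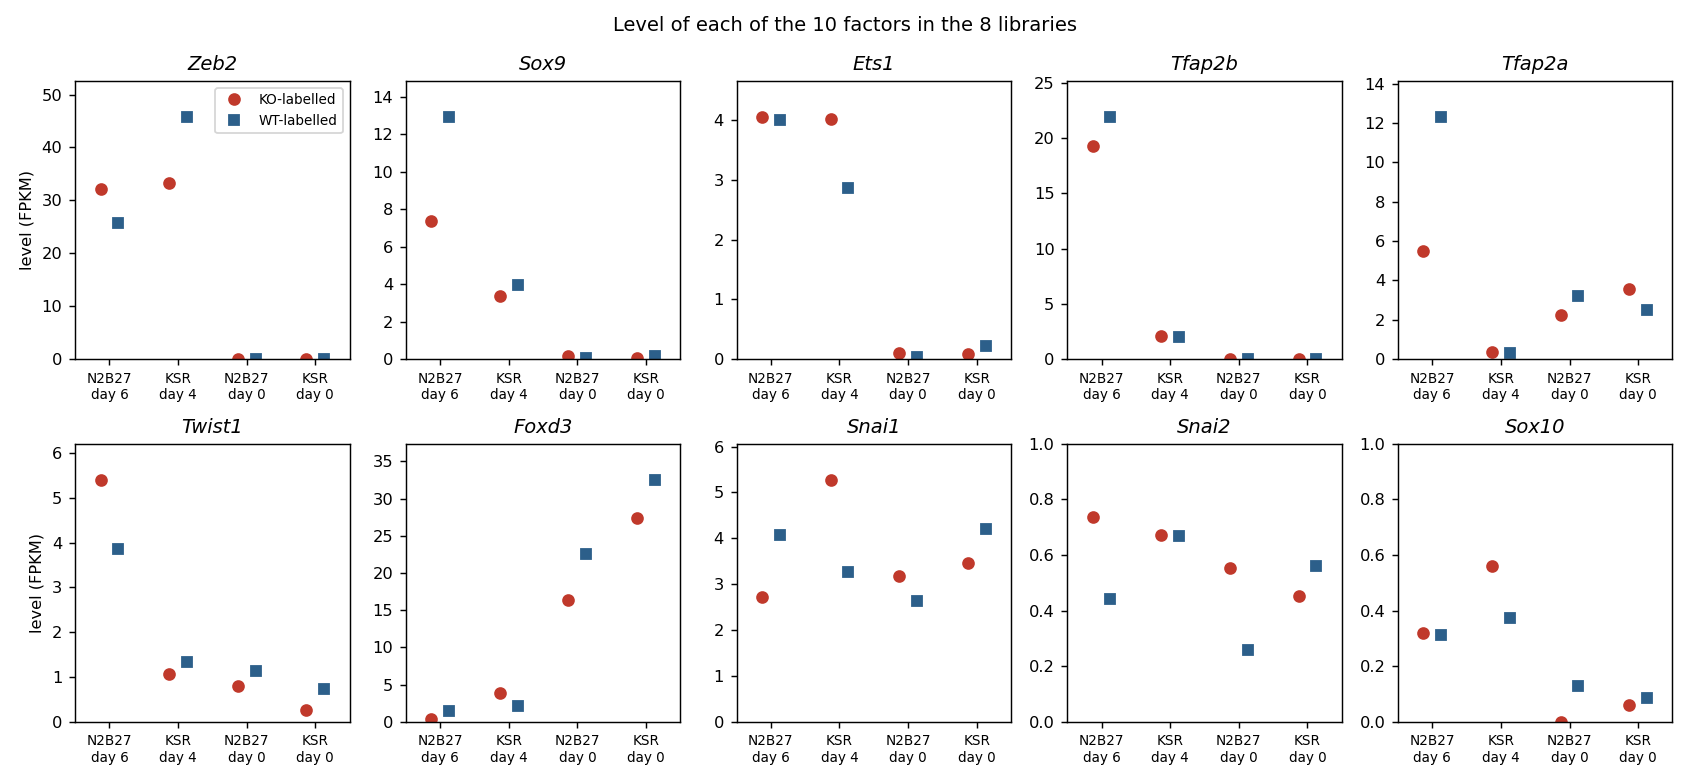
FPKM of the 10 genes (1 panel each) in the 8 libraries, by condition, with KO- and WT-labelled libraries as points. Zeb2, Sox9, Ets1 and Tfap2b lie high in the differentiated libraries and at or near 0 at day 0, Foxd3 lies the other way, and Sox10 and Snai2 stay under 1 FPKM throughout.

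Zeb2 led the 10 genes by level after differentiation, in both media, and Foxd3 led them at day 0. Zeb2 held 29.6% to 73.0% of the summed FPKM of the 10 genes after differentiation, and at most 0.142% at day 0. Foxd3 made up at most 6.99% of the sum in the differentiated libraries, and 69.7% to 79.4% at day 0. The sum itself was 77.8 FPKM in the KO-labelled and 87.0 FPKM in the WT-labelled library at N2B27 day 6, and 54.5 (KO) and 62.6 (WT) FPKM at KSR day 4. In the day 0 libraries it was 23.4 (KO) and 30.0 (WT) FPKM in the N2B27 series and 35.4 (KO) and 40.9 (WT) FPKM in the KSR series. The sum was thus higher in each of the 4 differentiated libraries than in any at day 0. In bulk RNA, fewer cells of a type and less RNA per cell cannot be told apart.

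**Figure D2:**
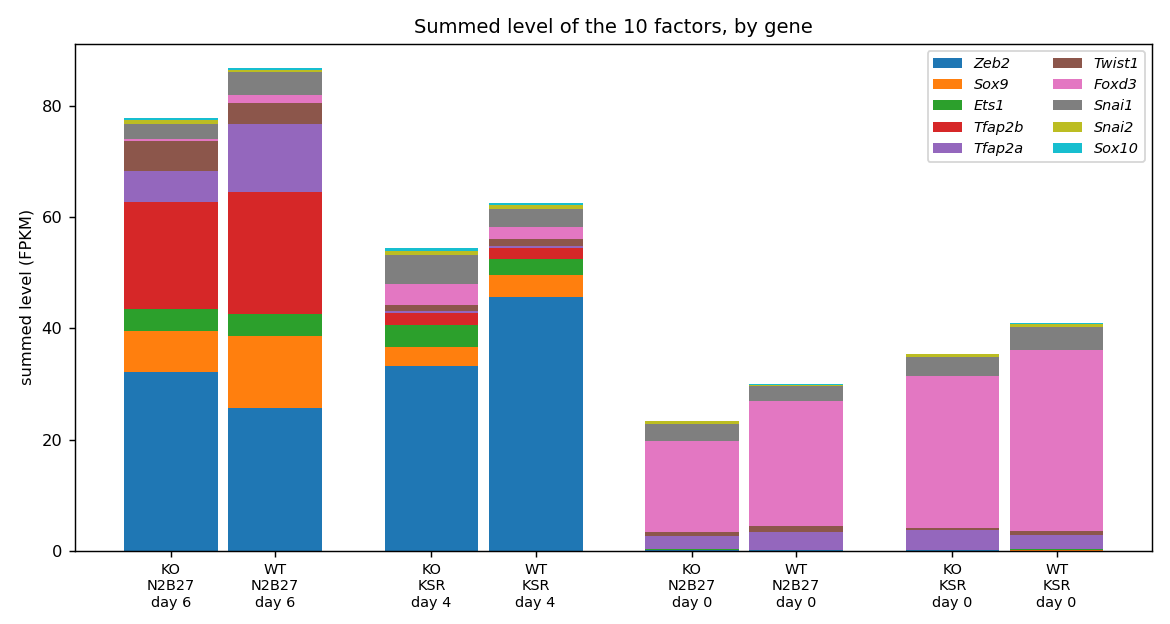
Summed FPKM of the 10 genes in each library, stacked by gene. Zeb2 is the largest share of each differentiated bar, joined by Tfap2b and Sox9 at N2B27 day 6, and Foxd3 fills most of each day 0 bar.

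In the test of each medium against its own day 0, 8 of the 10 genes could be tested, since Sox10 and Snai2 did not reach 1 FPKM in at least 2 libraries. The filter keeps a gene that is high in 1 condition alone, so the counts that follow describe the 8 and support nothing beyond them. The test was limma on log2 of FPKM plus 1, with the label as a block and p-values adjusted over 15967 genes by the Benjamini-Hochberg method. Positions of the 10 protein-coding genes are those of GENCODE M21 on GRCm38/mm10. Differences from day 0 are given on that scale with their standard error (SE), and that of a gene near 0 on one side depends on the added 1 and understates its change. At N2B27 day 6, 6 of the 8 rose, beside 29.7% of all genes tested, and 1 fell, beside 26.2%. At KSR day 4, 4 of the 8 rose, beside 28.5% of all genes, and 2 fell, beside 20.0%. The median difference of the 8 was 1.87 log2 at N2B27 day 6 and 1.09 log2 at KSR day 4, and that of all genes 0.04 and 0.08 log2.

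**Figure D3:**
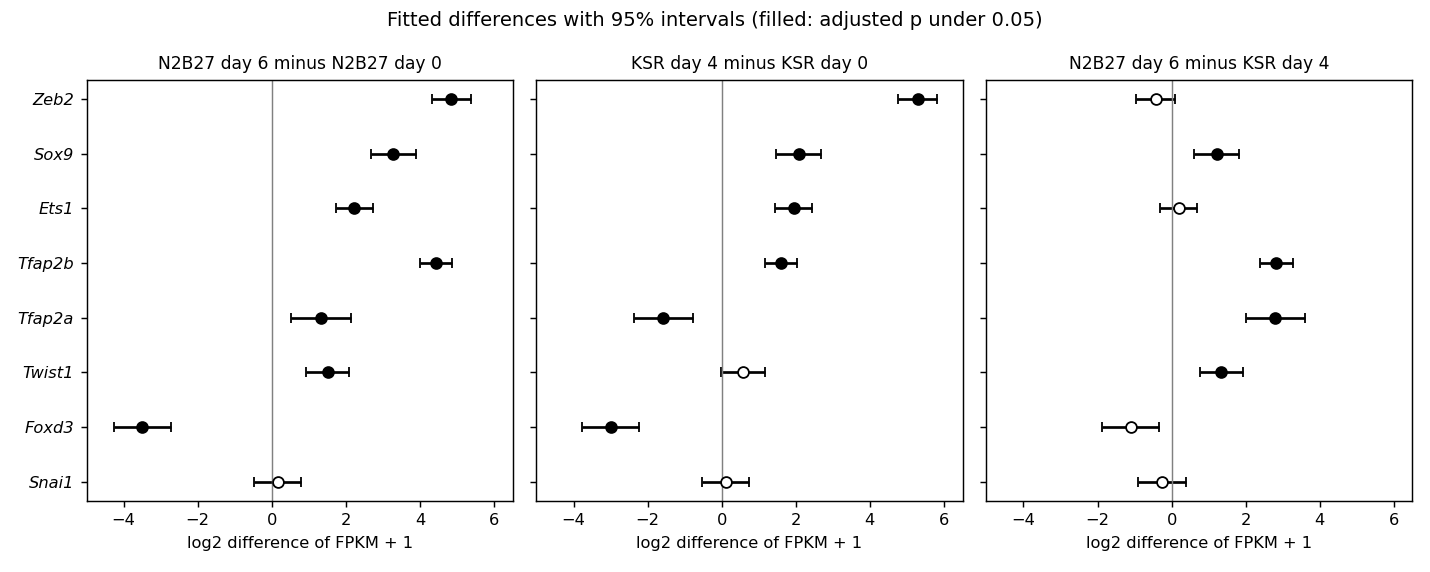
Fitted differences of the 8 tested genes on the log2(FPKM + 1) scale, with 95% intervals. The panels show N2B27 day 6 against day 0, KSR day 4 against day 0, and N2B27 day 6 against KSR day 4. Zeb2, Sox9, Ets1 and Tfap2b are above 0 in both media, Foxd3 is below 0 in both, and Tfap2a changes side between the media.

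Zeb2 (chr2:44983632-45117395, minus strand), which binds Smad proteins and represses E-cadherin, had the largest difference of the 8 in both media. It reached 32.1 FPKM in the KO-labelled and 25.7 FPKM in the WT-labelled library at N2B27 day 6, and 33.3 (KO) and 45.7 (WT) FPKM at KSR day 4. In the 4 day 0 libraries it had 0.00793 to 0.0380 FPKM. The differentiated and day 0 libraries were thus far apart, and the 2 media lay next to each other. Zeb2 rose by 4.85 ± 0.221 log2 at N2B27 day 6 (limma adjusted p = 1.37e-05) and by 5.29 ± 0.221 log2 at KSR day 4 (limma adjusted p = 1.38e-05). Between N2B27 day 6 and KSR day 4 its levels did not overlap, but the difference of −0.43 log2 did not pass the test (95% interval −0.95 to 0.09, limma adjusted p = 0.256). The antisense gene Zeb2os shares 653 bases, 3.27% of the exon bases of Zeb2, and whether counting used strand is not stated. Zeb2os had 2.93 to 3.76 FPKM in the differentiated libraries and was listed at 0 at day 0.

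Sox9 (chr11:112782224-112787760, plus strand), a crest factor that also drives cartilage and glia, rose in both media. It had 7.38 FPKM in the KO-labelled and 12.9 FPKM in the WT-labelled library at N2B27 day 6, and 3.39 (KO) and 3.96 (WT) FPKM at KSR day 4, against 0.0506 to 0.173 FPKM over the day 0 libraries. Both media were clear of day 0, and N2B27 day 6 lay above KSR day 4. The difference from day 0 was 3.28 ± 0.252 log2 in N2B27 (limma adjusted p = 8.16e-05) and 2.07 ± 0.252 log2 in KSR (limma adjusted p = 0.000692). Ets1 (chr9:32636221-32757820, plus strand), an ETS domain factor of cranial crest and of blood vessels, had 4.05 (KO) and 4.01 (WT) FPKM at N2B27 day 6 and 4.02 (KO) and 2.86 (WT) FPKM at KSR day 4, against 0.0407 to 0.214 FPKM at day 0. The 2 media overlapped for Ets1 and both lay above day 0. It rose by 2.23 ± 0.209 log2 in N2B27 (limma adjusted p = 0.000187) and by 1.94 ± 0.209 log2 in KSR (limma adjusted p = 0.000403).

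The AP-2 genes Tfap2a and Tfap2b differed between the media. Tfap2b (chr1:19208914-19238576, plus strand) had 19.3 FPKM in the KO-labelled and 21.9 FPKM in the WT-labelled library at N2B27 day 6, and 2.07 (KO) and 1.99 (WT) FPKM at KSR day 4, and was listed at 0 in all 4 day 0 libraries. The ratio of means between these media was 10.1. Tfap2b rose by 4.43 ± 0.186 log2 in N2B27 (limma adjusted p = 1.15e-05) and by 1.60 ± 0.186 log2 in KSR (limma adjusted p = 0.000561), values set in part by the added 1, since day 0 is at 0.

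Tfap2a (chr13:40715302-40738376, minus strand) had 5.48 FPKM in the KO-labelled and 12.3 FPKM in the WT-labelled library at N2B27 day 6, and 0.342 (KO) and 0.331 (WT) FPKM at KSR day 4. Unlike Tfap2b it was also read in stem cells, at 2.26 to 3.56 FPKM over the day 0 libraries. N2B27 day 6 thus lay above each day 0 library and KSR day 4 below each of them. It rose by 1.33 ± 0.336 log2 in N2B27 (limma adjusted p = 0.0137) and fell by 1.57 ± 0.336 log2 in KSR (limma adjusted p = 0.00789). Neither call held in every refit without 1 library: the adjusted p in KSR was 0.0683 without the WT-labelled KSR day 4 library and 0.0715 without the KO-labelled KSR day 0 library. In N2B27 it was 0.0792 without the WT-labelled day 6 library, 0.0876 without the KO-labelled day 0 library and 0.0709 without the WT-labelled day 0 library. Antisense genes, 3 in number, overlap exons of Tfap2a, and none of them exceeded 0.739 FPKM. Their paralogue Tfap2c, a factor of trophoblast and germ cells, had 2.44 (KO) and 3.28 (WT) FPKM at N2B27 day 6 and 2.05 (KO) and 1.37 (WT) FPKM at KSR day 4, against 30.4 to 49.4 FPKM at day 0. It fell in both media (−3.60 and −3.71 log2, limma adjusted p = 2.42e-05 and 2.88e-05).

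Twist1 (chr12:33957671-33959829, plus strand), a basic helix-loop-helix EMT factor, was highest at N2B27 day 6, with 5.40 FPKM in the KO-labelled and 3.86 FPKM in the WT-labelled library. At KSR day 4 it had 1.07 (KO) and 1.34 (WT) FPKM, and at day 0 it had 0.800 (KO) and 1.14 (WT) FPKM in the N2B27 series and 0.265 (KO) and 0.722 (WT) FPKM in the KSR series. KSR day 4 overlapped N2B27 day 0, while N2B27 day 6 lay clear of all other libraries. Twist1 rose by 1.51 ± 0.247 log2 in N2B27 (limma adjusted p = 0.00217), and its KSR difference of 0.58 ± 0.247 log2 did not pass (limma adjusted p = 0.0951).

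Foxd3 (chr4:99656299-99658622, plus strand), a forkhead factor of both stem cells and crest, fell in both media. At N2B27 day 6 it had 0.346 FPKM in the KO-labelled and 1.38 FPKM in the WT-labelled library, and at KSR day 4 it had 3.81 (KO) and 2.08 (WT) FPKM. At day 0 it had 16.3 (KO) and 22.5 (WT) FPKM in the N2B27 series and 27.4 (KO) and 32.5 (WT) FPKM in the KSR series. The 4 conditions did not overlap, and the 2 day 0 series, in the same kind of medium, also lay apart. Foxd3 fell by 3.49 ± 0.327 log2 in N2B27 (limma adjusted p = 0.000186) and by 3.0 ± 0.327 log2 in KSR (limma adjusted p = 0.000428). Markers of naive stem cells moved with it: the 8 on the list summed to 18.5 (KO) and 56.9 (WT) FPKM at N2B27 day 6 and to 120 (KO) and 70.1 (WT) FPKM at KSR day 4, against 1840 to 2234 FPKM at day 0. At KSR day 4 Pou5f1 alone held 90.4 (KO) and 47.8 (WT) FPKM of these sums. All 8 of these markers fell in N2B27, beside 26.2% of all genes, and 7 of the 8 in KSR, beside 20.0%. The part of these markers in the result was not tested.

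Snai1 (chr2:167538195-167542814, plus strand), the zinc finger repressor that gives the Snail family its name, did not pass in either medium. It had 2.71 (KO) and 4.07 (WT) FPKM at N2B27 day 6, 5.27 (KO) and 3.27 (WT) FPKM at KSR day 4, 3.17 (KO) and 2.63 (WT) FPKM at N2B27 day 0 and 3.46 (KO) and 4.20 (WT) FPKM at KSR day 0. Each condition overlapped the next in order of level. Its difference was 0.16 log2 in N2B27 (95% interval −0.49 to 0.80, limma adjusted p = 0.643) and 0.10 log2 in KSR (95% interval −0.54 to 0.75, limma adjusted p = 0.779). Snai2 (chr16:14705852-14709385, plus strand), the other Snail family gene described here, stayed between 0.259 and 0.737 FPKM over the 8 libraries. Its conditions too overlapped in order of level. Sox10 (chr15:79154908-79165240, minus strand) stayed between 0 and 0.561 FPKM, so the marker of migrating crest was under 1 FPKM in each library. With no filter on low values Sox10 was higher at KSR day 4 by 0.448 ± 0.0951 log2 (limma adjusted p = 0.034), while N2B27 gave 0.307 log2 (limma adjusted p = 0.0799). Snai2 gave 0.149 and 0.178 log2 in KSR and N2B27, with limma adjusted p = 0.525 and 0.416.

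N2B27 day 6 was then set against KSR day 4, a comparison in which medium, day and culture series cannot be told apart. Of the 8 tested genes, 4 were higher at N2B27 day 6, beside 5.02% of all genes, and 0 were lower, beside 4.77%. They were Tfap2b (2.83 ± 0.186 log2, limma adjusted p = 0.00193), Tfap2a (2.80 ± 0.336 log2, limma adjusted p = 0.00761), Twist1 (1.34 ± 0.247 log2, limma adjusted p = 0.0237) and Sox9 (1.21 ± 0.252 log2, limma adjusted p = 0.0321). The ratio of mean FPKM was 26.5 for Tfap2a, 10.1 for Tfap2b, 3.85 for Twist1 and 2.76 for Sox9. Sox9 lost its call in 7 of 8 refits without 1 library (all but that without the KO-labelled N2B27 day 6 library), Twist1 in 5 and Tfap2a in 2 (without either KSR day 4 library), while Tfap2b kept it in all 8. When the 2 responses were compared, each over its own day 0, 2 of the 8 passed, beside 3.96% of all genes. These were Tfap2a, at 2.90 ± 0.475 log2 (limma adjusted p = 0.0335), and Tfap2b, at 2.83 ± 0.263 log2 (limma adjusted p = 0.012). Sox9 (1.21 log2, 95% interval 0.37 to 2.06, limma adjusted p = 0.107) and Twist1 (0.93 log2, 95% interval 0.10 to 1.76, limma adjusted p = 0.172) did not pass there.

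Endoderm markers differed between the same libraries. Of the 8 on the list 7 were tested. Of these, 4 were higher at N2B27 day 6 than at KSR day 4, beside 5.02% of all genes, and 0 were lower, beside 4.77%. The sum of all 8 was 167 (KO) and 309 (WT) FPKM at N2B27 day 6 and 77.6 (KO) and 105 (WT) FPKM at KSR day 4. Of these sums Cxcr4 held 91.5 (KO) and 109 (WT) FPKM at N2B27 day 6. At KSR day 4 it held 43.2 (KO) and 71.1 (WT) FPKM. Cxcr4 did not pass (limma adjusted p = 0.0926), nor did Foxa2 (limma adjusted p = 0.901) or Sox7 (limma adjusted p = 0.092). Sox17, which marks endoderm, had 21.2 (KO) and 56.9 (WT) FPKM at N2B27 day 6 and 1.58 (KO) and 1.64 (WT) FPKM at KSR day 4. Mesoderm and mesenchyme markers summed to 40.2 (KO) and 44.6 (WT) FPKM at N2B27 day 6 and to 22.8 (KO) and 20.1 (WT) FPKM at KSR day 4, with 3 of 7 tested higher and 0 lower. Surface ectoderm markers summed to 10.1 (KO) and 15.1 (WT) FPKM at N2B27 day 6 and to 31.8 (KO) and 17.1 (WT) FPKM at KSR day 4, with 0 of 4 tested higher and 1 lower. That gene was Epcam, which holds most of these sums at KSR day 4, with 4.28 (KO) and 8.62 (WT) FPKM at N2B27 day 6 and 28.0 (KO) and 14.4 (WT) FPKM at KSR day 4. The median difference of the 4 tested was 0.39 log2, and the keratin Krt5 was listed at 0 in all 4 of these libraries. The part of these markers in the AP-2, Sox9 and Twist1 results was not tested.

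**Figure D4:**
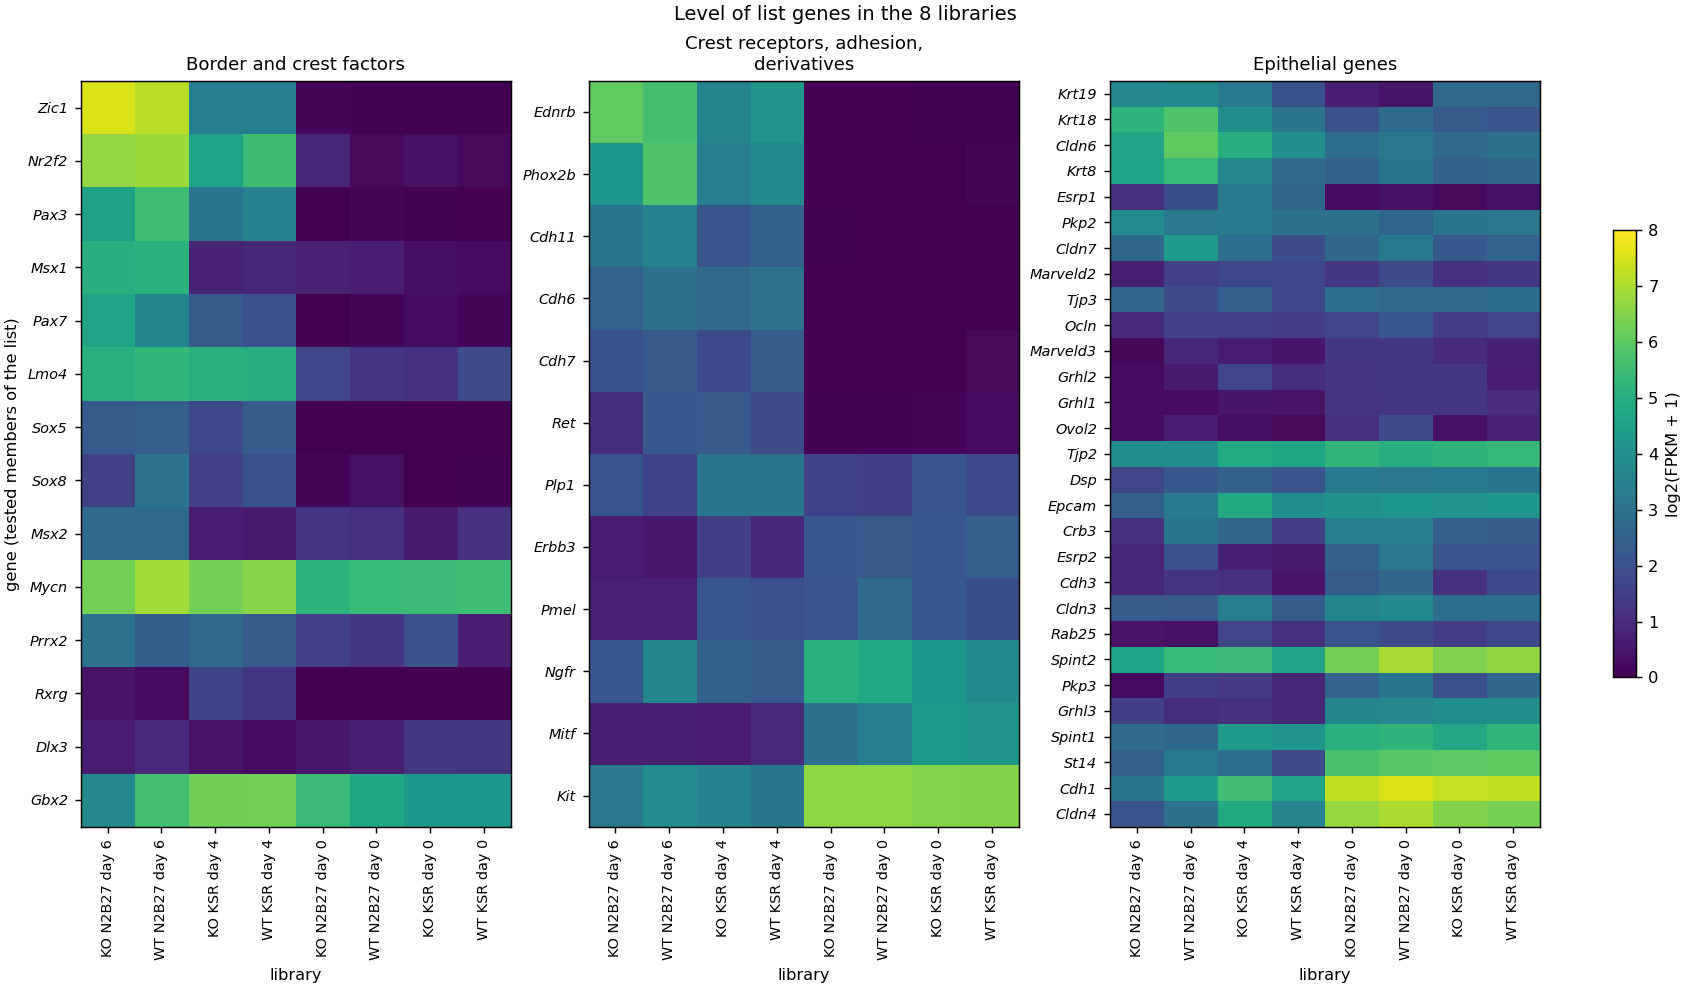
Levels in each library, as log2(FPKM + 1), of tested border and crest factors, crest receptors, adhesion and derivative genes, and epithelial genes. Most border and crest factors stand higher in the differentiated libraries. The receptor, adhesion and derivative genes go both ways, and more epithelial genes stand lower after differentiation than stand higher.

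Between labels, none of the 8 tested genes passed over the 4 conditions, beside 0.00626% of all genes, 1 gene in number. Limma gave 694 genes at an unadjusted p under 0.05. The estimates for KO minus WT ran from −0.25 log2 for Tfap2a (95% interval −0.82 to 0.31) to 0.08 log2 for Ets1 (95% interval −0.27 to 0.43), and that of Sox9 was −0.21 log2 (95% interval −0.63 to 0.21). Differences within these intervals, and also larger ones since the test was adjusted over all genes, may have gone undetected with 4 pairs. Differentiation taken over both media was tested within each label. In KO-labelled cells 4 of the 8 passed, beside 27.3% of all genes, and in WT-labelled cells 4, beside 30.2%. In both labels Zeb2, Sox9 and Ets1 were higher and Foxd3 lower. The difference of these responses passed for 0 of the 8, beside 0% of all genes, and limma gave 166 genes at an unadjusted p under 0.05.

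Single pairs, for which there is no replicate and no test, differed most at N2B27 day 6, the pair whose columns are named day 6 (KO) and day 7 (WT). A difference of 1 day cannot be told apart from the label there. In this pair 3 of the 8 differed by at least 0.5 log2, beside 19.8% of all genes, and all 3 were lower in the KO-labelled library. Tfap2a had 5.48 (KO) and 12.3 (WT) FPKM, a difference of −1.04 log2. Foxd3 had 0.346 (KO) and 1.38 (WT) FPKM, a difference of −0.82 log2. Sox9 had 7.38 (KO) and 12.9 (WT) FPKM, a difference of −0.73 log2. At KSR day 4 Foxd3 (0.64 log2) and Snai1 (0.56 log2) did so, beside 8.21% of all genes, and both were higher in the KO-labelled library. None did at N2B27 day 0, beside 14.8% of all genes, or at KSR day 0, beside 9.29%. In the N2B27 day 6 pair endoderm markers, at 167 (KO) and 309 (WT) FPKM, and naive markers, at 18.5 (KO) and 56.9 (WT) FPKM, were lower in the KO-labelled library, and at KSR day 4 naive markers were higher in it, at 120 (KO) and 70.1 (WT) FPKM. Their part in the differences was not tested.

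**Figure D5:**
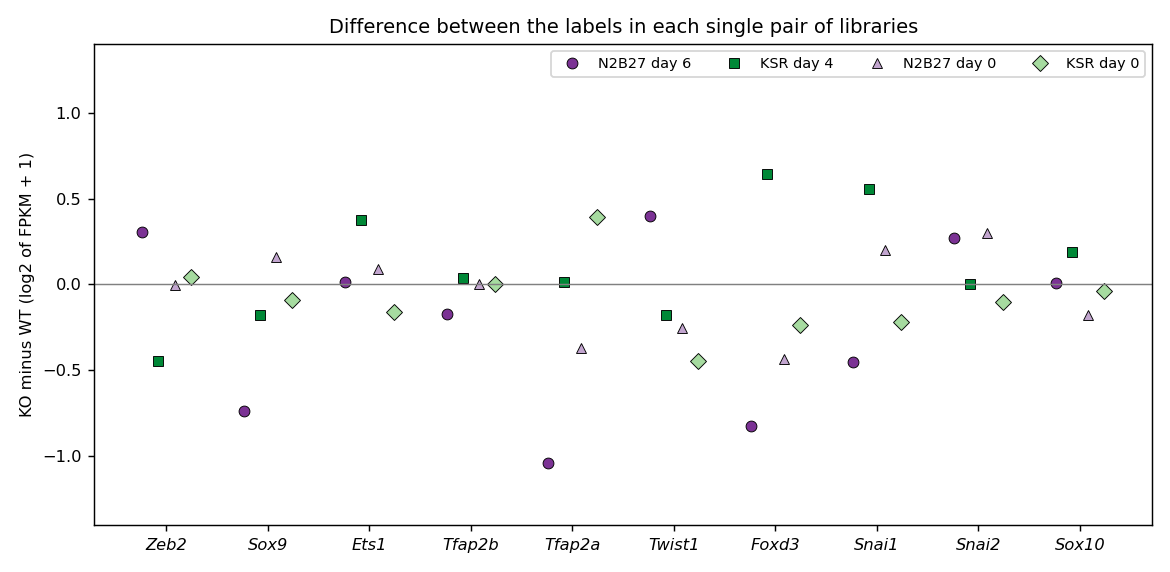
KO minus WT differences of the 10 genes on the log2(FPKM + 1) scale in each of the 4 label pairs. Sox9, Foxd3 and Tfap2a lie below −0.5 at N2B27 day 6, and Foxd3 and Snai1 above 0.5 at KSR day 4.

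Factors of the neural plate border and crest outside the 10 genes also rose. Of 17 on the list, 14 were tested. In N2B27 11 rose, beside 29.7% of all genes, and 0 fell, beside 26.2%. In KSR 12 rose, beside 28.5%, and 1 fell, beside 20.0%. Zic1, a zinc finger factor of the dorsal neural tube, had 186 (KO) and 143 (WT) FPKM at N2B27 day 6 and 9.97 (KO) and 10 (WT) FPKM at KSR day 4. Msx1, a homeobox factor of the border, had 32.2 (KO) and 33.7 (WT) FPKM at N2B27 day 6 and 0.709 (KO) and 0.804 (WT) FPKM at KSR day 4. Both were higher at N2B27 day 6 (limma adjusted p = 0.000762 for Zic1 and 0.000696 for Msx1). Of the 14, 6 were higher there, beside 5.02% of all genes, and 1, Rxrg, was lower, beside 4.77%. Pax3, a border factor, rose by 4.99 log2 in N2B27 and by 3.29 log2 in KSR. In the order of levels over the 8 libraries Pax3 was also among the 3 genes most like Sox9 (Pearson r of log2 values 0.998), a description over libraries that share their conditions.

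Signals known to induce crest differed between N2B27 day 6 and KSR day 4, where medium, day and culture series cannot be told apart. Wnt1, which is made in the dorsal neural tube, had 12.0 (KO) and 5.63 (WT) FPKM at N2B27 day 6 and 0.591 (KO) and 0.246 (WT) FPKM at KSR day 4, and was higher at N2B27 day 6 (2.72 log2, limma adjusted p = 0.0052). Bmp4 and Wnt3a were also higher there (1.82 and 1.68 log2, limma adjusted p = 0.0383 and 0.0203). Fgf8 was lower, with 1.19 (KO) and 1.19 (WT) FPKM at N2B27 day 6 against 15.1 (KO) and 8.94 (WT) FPKM at KSR day 4 (limma adjusted p = 0.00465). These were the 4 that passed of 7 tested, beside 5.02% of all genes higher and 4.77% lower. With each response taken over its own day 0, Wnt1 and Fgf8 passed (2.71 and −2.94 log2, limma adjusted p = 0.0267 and 0.0175). Bmp4 and Wnt3a did not (limma adjusted p = 0.132 and 0.0948). Bmp4 fell in KSR (−1.65 log2, limma adjusted p = 0.014) and did not pass in N2B27 (0.10 log2, limma adjusted p = 0.852). Wnt3a was also one of the 3 genes most like Twist1 over the 8 libraries (Pearson r 0.982).

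Of the crest receptors, adhesion and derivative genes, 12 of 15 were tested. In N2B27 6 rose, beside 29.7% of all genes, and 5 fell, beside 26.2%. In KSR 7 rose, beside 28.5%, and 4 fell, beside 20.0%. Ednrb, the endothelin receptor of crest cells, had 65.4 (KO) and 49.0 (WT) FPKM at N2B27 day 6 and 11.1 (KO) and 16.9 (WT) FPKM at KSR day 4, against 0 to 0.0300 FPKM at day 0. The receptor genes Kit and Ngfr and the pigment cell factor Mitf fell in both (Mitf by 2.53 log2 in N2B27 and 3.46 log2 in KSR). Tyr, which encodes tyrosinase of pigment cells, was listed at 0 in all 8 libraries.

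The targets and partners of the EMT factors shifted as well. The E-cadherin gene Cdh1 had 7.73 (KO) and 20.1 (WT) FPKM at N2B27 day 6 and 45.7 (KO) and 24.5 (WT) FPKM at KSR day 4, against 153 to 187 FPKM at day 0. It fell in N2B27 (−3.66 log2, limma adjusted p = 0.000464) and in KSR (−2.17 log2, limma adjusted p = 0.00543). The N-cadherin gene Cdh2, which neural cells also use, had 61.7 to 82.0 FPKM after differentiation and at most 0.300 FPKM at day 0. Epcam, an epithelial adhesion gene, fell in N2B27 by 1.32 log2 (limma adjusted p = 0.0191) and did not pass in KSR (0.21 log2, limma adjusted p = 0.664).

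Of 30 epithelial genes 29 were tested. In N2B27 18 fell, beside 26.2% of all genes, and 6 rose, beside 29.7%. In KSR 12 fell, beside 20.0%, and 3 rose, beside 28.5%. The median difference of the 29 was −1.18 and −0.30 log2, in that order. Those that rose in N2B27 included the keratin genes Krt8, Krt18 and Krt19, and Krt18 also rose in KSR. Of 24 EMT partners and mesenchymal genes 20 were tested, and 15 rose and 4 fell in N2B27, while 12 rose and 3 fell in KSR. The smooth muscle actin gene Acta2 rose by 6.24 and 4.96 log2, and the fibronectin gene Fn1 fell by 1.83 and 2.91 log2. Zeb1, the paralogue of Zeb2, had 25.9 (KO) and 27.2 (WT) FPKM at N2B27 day 6 and 16.2 (KO) and 23.6 (WT) FPKM at KSR day 4, against 3.59 to 9.79 FPKM at day 0. It rose by 2.13 log2 in N2B27 (limma adjusted p = 0.0017) and by 1.13 log2 in KSR (limma adjusted p = 0.0275). All 8 neural progenitor markers, Cdh2 among them, rose in both media, to sums of 674 (KO) and 868 (WT) FPKM at N2B27 day 6 and 382 (KO) and 476 (WT) FPKM at KSR day 4, against 13.7 to 20.8 FPKM at day 0. Their part in the rise of Zeb2, Sox9 and the list genes was not tested.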

How the data were processed

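The authors deposited 1 table of FPKM per gene symbol with 8 library columns. The submitters' processing notes name STAR, Cufflinks and the build mm10, and their versions, the annotation and use of strand are not given in sources used here. A SMARTer mRNA kit and paired reads on a NovaSeq were used, per the labels' protocols. Columns were matched to sample titles. Descriptions of 4 samples conflict with their titles, 2 of them by repeating the names of the KO columns of the KSR series; these columns were placed by line, series and day, as in the titles. The 110 repeated entries were summed into their symbol.

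The 15967 genes that reached 1 FPKM in 2 or more libraries were fitted on log2(FPKM + 1) with limma 3.58.1 in R 4.3.3 and a trend in the eBayes step, and p-values were adjusted over these genes by the Benjamini-Hochberg method, with 0.05 as the threshold. The comparisons of conditions and of labels came from 1 fit of label and condition (3 residual degrees of freedom). Differentiation within labels came from a fit with a block of label by series (2 residual degrees of freedom). The fits were tested on simulated data in which only genes of higher mean level were changed. That test does not cover genes at or near 0 in some libraries. Genes of each list were named by the largest changes past the test, up to 4 in each direction, with Cdh1, Cdh2, Epcam, the paralogues and marker genes added, and some of these were chosen after their values were seen. Likeness is Pearson's r of log2 values over 8 libraries, among tested genes with an SD of at least 0.5. Coordinates and overlaps come from GENCODE M21. The members, lists and tests were chosen with earlier results of these data known. The values of some list genes are not reported here.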

Additional observations from a re-analysis of the deposited data

Results flagged for a closer look

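The response of the AP-2 genes to differentiation differed between the media by the test of the difference itself. Tfap2a had a difference of 2.90 log2 between its N2B27 and KSR responses (limma adjusted p = 0.0335). Tfap2b had a difference of 2.83 log2 (limma adjusted p = 0.012), with day 0 libraries listed at 0. Medium, day and culture series cannot be told apart.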

How the results depend on the processing

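The labels carry no replicate numbers, so libraries were paired by label and condition alone. With no replicate block, the label term dropped, 7868 genes passed in KSR, 9089 in N2B27 and 1814 between N2B27 day 6 and KSR day 4, against 7738, 8921 and 1564 with it, and 4 members were higher between media in both. The members' counts in KSR and N2B27 kept within 1.5 times under the other pseudocount, filter, scalings and eBayes settings. Between the media, 4 members were higher, 2 with a pseudocount of 0.1, 1 with no filter and 2 as the difference of responses. Over all genes this comparison gave 451 with no filter and 633 as the difference of responses. Between labels 1 gene passed, 2 with a pseudocount of 0.1 and 0 with no filter. No member changed sign with its call, while 43 of 592 refitted values, none of them past the test, moved to the other side of 0. Of calls, 27 were lost and 2 gained (Twist1 in KSR). Tfap2a in N2B27 lost its call with no filter (limma adjusted p = 0.068).

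Without 1 library at a time, 1 to 2 members were lower in KSR and 1 to 3 were higher between media. Over all genes 4870 to 8094 passed in KSR, 65 to 1051 between media, 0 to 1 between labels and 0 to 2 in the difference of responses between labels. The lowest between media, 65, came without the KO-labelled KSR day 4 library. The causes were not tested. Read depth is unknown, so levels under 1 FPKM carry no counting interval.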

Other observations

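Marker lists of cartilage and of glia gave mixed values. Of 7 tested cartilage markers 5 rose and 1 fell in N2B27, and 4 rose and 1 fell in KSR. Of all genes tested, 29.7% rose and 26.2% fell in N2B27, and 28.5% rose and 20.0% fell in KSR. The collagen gene Col2a1 had 84.8 FPKM in the KO-labelled and 38.3 FPKM in the WT-labelled library at N2B27 day 6, and 40.7 (KO) and 35.7 (WT) FPKM at KSR day 4, against 0.488 to 1.01 FPKM at day 0. Acan, which encodes the cartilage proteoglycan aggrecan, stayed between 0.0559 and 0.584 FPKM. Of 6 tested markers of Schwann cells and oligodendrocytes, 5 rose and 1 fell in KSR, and 2 rose and 1 fell in N2B27. The oligodendrocyte and motor neuron factor Olig2 had 0.429 (KO) and 0.457 (WT) FPKM at N2B27 day 6 and 6.19 (KO) and 4.25 (WT) FPKM at KSR day 4, and was lower at N2B27 day 6 by the test (−2.09 log2, limma adjusted p = 0.00476).

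Melanocyte markers fell, with 3 of 3 tested lower in N2B27 and 2 of 3 in KSR, beside 26.2% and 20.0% of all genes. Their sum was 1.32 (KO) and 1.55 (WT) FPKM at N2B27 day 6 and 4.19 (KO) and 3.97 (WT) FPKM at KSR day 4, against 12.4 to 24.8 FPKM at day 0. Endothelial markers summed to 2.59 to 6.76 FPKM after differentiation and to 46.0 to 77.8 FPKM at day 0. Most of the day 0 sum was Pecam1, a gene that mouse stem cells also express, with 0.328 to 1.85 FPKM after differentiation and 40.5 to 75.7 FPKM at day 0. Of the 9 on the list 3 were tested, Pecam1, Kdr and Tek. In N2B27 3 fell, beside 26.2% of all genes, and 0 rose, beside 29.7%. In KSR 1 fell, Pecam1, beside 20.0%, and 0 rose, beside 28.5%. Some genes below the filter for testing were higher after differentiation at low levels. Cdh5, the cadherin of endothelium, had 0.174 to 0.557 FPKM after differentiation and 0 to 0.0163 FPKM at day 0. Fli1 had 0.0637 to 0.50 FPKM after differentiation and was listed at 0 at day 0. The part of these markers in the rise of Ets1, which endothelium also uses, was not tested.

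Over the 8 libraries Zeb2 was most like Hoxb3, Ildr2 and Hoxb2 (Pearson r of log2 values at least 0.999 for each), and Tfap2b most like Mir100hg, Kif3c and Egflam (0.997 each). Snai1 had no close match, with 0.785 for Rnf128 as the highest. These values describe libraries that share their conditions.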
